A study of Homo sapiens with 12 samples.

Results

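The 10 genes described here encode the core of telomerase and the proteins that hold telomeres: TERT, TERC, DKC1, ATRX, DAXX, TERF1, TERF2, TINF2, POT1 and ACD. They were taken by name from a table of 58735 genes, and each name had 1 row. The table gives RNA levels as FPKM, a value scaled for gene length and library size, in 12 libraries of cultured human neuroblastoma cells. The labels put them in 4 groups of 3: SK-N-SH with a control hairpin (shNC, genotype WT), SK-N-SH with a hairpin called shL5 (genotype TSPYL5 knockdown), and the same pair of hairpins in a second line. The titles call the second line SK_N_BE2, while its source and cell line labels call it SH-SY5Y, and it is written as the second line. All 12 libraries are labelled as receiving no treatment. The labels name 1 hairpin against TSPYL5, and libraries that carry its label are written as shL5-labelled. Nothing in the labels ties the replicates to separate cultures, and p-values then cover no more than the spread among these libraries, which may be technical.

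Telomerase adds short repeats to chromosome ends. TERT is its reverse transcriptase, TERC the RNA that carries the template, and DKC1 (dyskerin) binds and stabilises TERC. Shelterin covers the repeats: TERF1 and TERF2 bind double-stranded repeats, POT1 binds the single-stranded overhang, ACD (TPP1) recruits telomerase and joins POT1 to the complex, and TINF2 (TIN2) bridges the parts. ATRX and DAXX load a histone variant at telomeres, and their loss is known from tumours that lengthen telomeres without telomerase. In neuroblastoma, MYCN amplification, TERT activation and ATRX loss are known as features of high-risk tumours, and TERT is a known target of MYC family proteins.

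A pair of sequences is given as background on TERC and TERT, and no level below was measured on either stretch alone. The first is from the TERC transcript of GENCODE 29, bases 16 to 86 of its 541 bases, with the template for the repeat, bases 46 to 56, in capitals. The second is from the TERT promoter in RefSeq (GRCh38.p14), chr5:1295166-1295271 on the minus strand, with the motif CACGTG in capitals; this is the E-box that MYC family proteins are known to bind.
TERC template region: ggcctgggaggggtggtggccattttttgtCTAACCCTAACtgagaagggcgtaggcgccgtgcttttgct
TERT promoter E-box: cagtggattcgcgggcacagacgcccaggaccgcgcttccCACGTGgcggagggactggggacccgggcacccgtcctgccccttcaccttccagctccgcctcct

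The E-box shown begins 163 bases before the RefSeq start of TERT. Promoters of 300 bases (250 before to 50 after the start) were matched for 5 of the 10 genes, TERT, DKC1, TINF2, POT1 and ACD, and TERT was the 1 of these 5 that held CACGTG. The motif reads the same on both strands and was held by 2548 of 35116 promoters of that length (7.256%). The TERT sequence of 300 bases ends in CACGT, so a copy of the motif that runs past its last base would not have been matched. A match describes the sequence and not binding.

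The labels and the data did not match in every group. TSPYL5, the gene named for the hairpin, was at 13.1, 13.4 and 12.2 FPKM in the libraries of the SK-N-SH control and at 17.1, 18.3 and 17.8 FPKM in the shL5-labelled SK-N-SH libraries. The shL5-labelled libraries were thus all higher. In the second line the control libraries had 24.0, 24.4 and 25.8 FPKM and the shL5-labelled libraries 13.3, 12.4 and 12.6 FPKM, so the latter were all lower. Every direction below rests on these labels. MYCN, a MYC family transcription factor, was at 988 to 1082 FPKM in the shL5-labelled SK-N-SH libraries and 1006 to 1072 FPKM in the second line control, against 0 to 0.0813 FPKM in the SK-N-SH control and 0 in all 3 shL5-labelled second line libraries. Of the lines that the labels name, SK-N-SH and its subclone SH-SY5Y are known to lack MYCN amplification. That statement does not cover SK_N_BE2, the name that the titles give to the second line. Pearson's r of log2 levels across tested genes was 0.986 to 0.987 between shL5-labelled SK-N-SH libraries and second line control, and 0.705 to 0.724 between shL5-labelled SK-N-SH libraries and SK-N-SH control. Between shL5-labelled second line libraries and SK-N-SH control it was 0.960 to 0.975. Replicates of one group gave 0.987 to 0.992. Genes are not independent replicates, so these are descriptions. Mitochondrial genes took 6.25 to 8.23% of reads. Whether libraries were exchanged between labels was not tested, and the labelled hairpin cannot be told apart from whatever else separates these groups.

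Recovered reads totalled 15425460 to 19249018 per library. Of the 10 genes, 9 passed a minimum mean of 0.5 FPKM over all 12 libraries and were tested among 15856 genes. TERC did not pass. Differences were tested with limma on log2(FPKM + 1), with Benjamini-Hochberg adjustment over all genes tested and a threshold of 0.05. A log2 fold on that scale understates the change of low genes, so levels or ratios of mean FPKM stand beside it for the 10 genes, and folds given without them for other genes keep this limit.

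**Figure D1:**
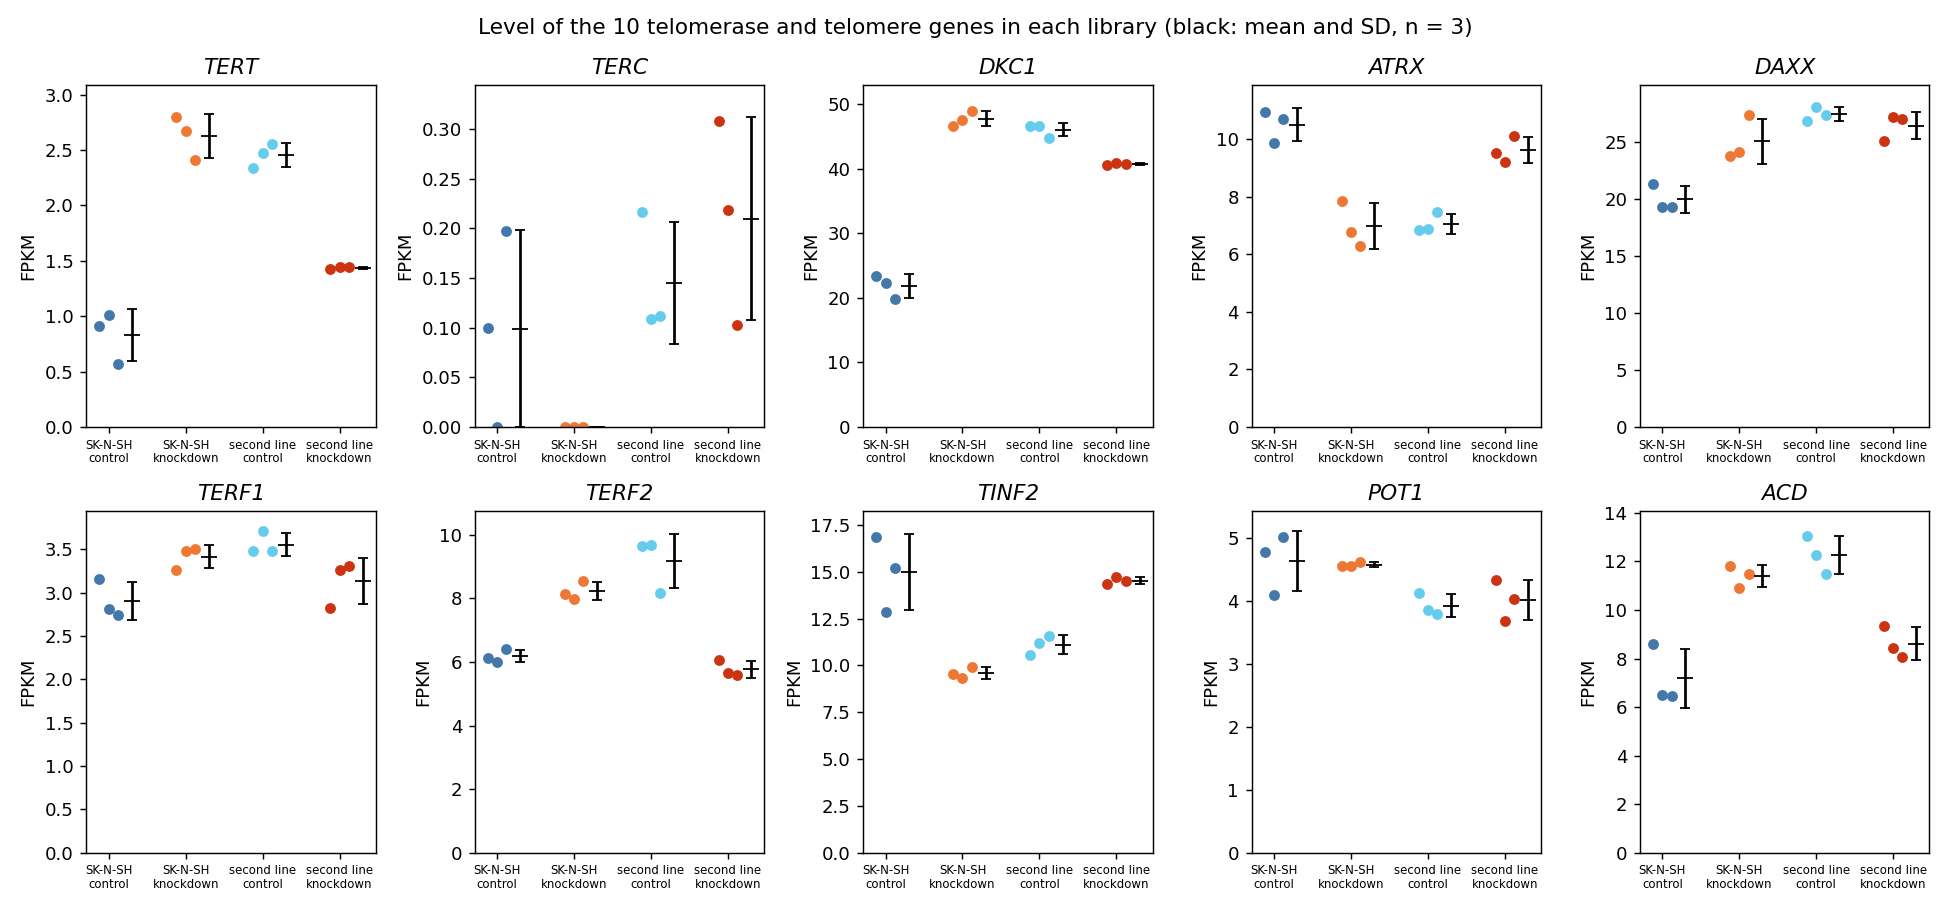
Each panel plots 1 gene, with FPKM on the vertical axis from 0 and the 4 groups on the horizontal axis; coloured points are libraries and black bars the mean and SD (n = 3), and the shL5-labelled groups are named knockdown in all plots. TERT and DKC1 were lowest in the SK-N-SH control, ATRX and TINF2 were lowest in the shL5-labelled SK-N-SH and second line control groups, and the POT1 panel shows overlapping values in both labelled knockdown comparisons.

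TERT (ENSG00000164362) lies on the minus strand of GRCh38 at chr5:1253147-1295069. Its level was 0.909, 1.01 and 0.570 FPKM in the libraries of the SK-N-SH control and 2.80, 2.67 and 2.41 FPKM in the shL5-labelled ones. The second line had 2.34, 2.47 and 2.56 FPKM in the control libraries and 1.42, 1.44 and 1.44 FPKM in the shL5-labelled ones. Neither pair of groups overlapped, and the shL5-labelled group was the higher one in SK-N-SH and the lower one in the second line.

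These values rest on 49 to 227 TERT reads per library. In the SK-N-SH comparison TERT rose from a mean of 0.830 ± 0.231 to 2.63 ± 0.200 FPKM (SD, n = 3), a 3.17-fold ratio (log2 fold 0.99, SE 0.09, limma adjusted p = 5.97e-07). It fell in the second line from 2.45 ± 0.110 to 1.44 ± 0.0108 FPKM (SD, n = 3), 1.71-fold lower (log2 fold -0.50, SE 0.09, limma adjusted p = 0.000202). The order of the means, from low to high, was SK-N-SH control, shL5-labelled second line, second line control and shL5-labelled SK-N-SH. The top pair in that order overlapped, and their difference did not pass the test (log2 fold 0.07, 95% interval -0.12 to 0.26, limma adjusted p = 0.763). The lower neighbours differed beyond their spread: TERT was 1.73-fold higher in the shL5-labelled second line libraries than in the SK-N-SH control (limma adjusted p = 0.00244). Over the alternatives, whose scales understate low genes to different degrees, the log2 fold of TERT ran from 0.89 to 1.70 in SK-N-SH and from -0.77 to -0.48 in the second line, with the call kept in each of the 14 that tested it. A minimum mean of 2 FPKM left TERT untested.

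DKC1 (ENSG00000130826), on the plus strand at chrX:154762742-154777689, moved with TERT in direction. It had 23.4, 22.4 and 19.8 FPKM in the SK-N-SH control and 46.7, 47.6 and 49.0 FPKM in the shL5-labelled SK-N-SH libraries. All shL5-labelled libraries were above all control libraries, and the means differed 2.18-fold (log2 fold 1.10, SE 0.06, limma adjusted p = 4.59e-09). The second line had 46.6, 46.7 and 44.9 FPKM in the control and 40.6, 41.0 and 40.7 FPKM in the shL5-labelled libraries. The groups again did not overlap, but the ratio was smaller, 1.13-fold lower (log2 fold -0.17, SE 0.06, limma adjusted p = 0.0130). DKC1 exons share 5.85% of their bases with 3 small RNA genes on the same strand, 2 of which are the small nucleolar RNAs SNORA36A and SNORA56, and how reads over those bases were assigned was not given in the sources used here.

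The RNA subunit was near the limit of detection. TERC (ENSG00000270141, chr3:169764520-169765060, minus strand) had 1, 0 and 2 reads in the libraries of the SK-N-SH control and 0 in all 3 shL5-labelled SK-N-SH libraries. It had 2, 1 and 1 reads in the second line control and 3, 2 and 1 in the shL5-labelled second line libraries, which makes 13 reads in all 12 libraries. The highest level was 0.308 FPKM. In the shL5-labelled SK-N-SH libraries, 0 reads allow a level of up to 0.109 FPKM (3 reads over the group, counting error only). A second annotation of the same RNA, RF00024, covers 438 of the 541 bases on the same strand (80.96%) and had 0 reads in all libraries. With no filter on low values TERC did not pass in any comparison (limma adjusted p = 0.128 to 0.555). A difference in TERC was therefore not detectable from these counts. How reads over the bases shared with RF00024 were assigned was not given in the sources used here. TERC is known to lack a poly(A) tail, and any selection for poly(A) was not given in the sources used here.

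ATRX, the chromatin remodeller, moved opposite to TERT. ATRX (ENSG00000085224, chrX:77504878-77786233, minus strand) had 10.9, 9.86 and 10.7 FPKM in the SK-N-SH control and 7.86, 6.78 and 6.28 FPKM in the shL5-labelled SK-N-SH libraries. It fell 1.51-fold there, with no overlap (log2 fold -0.53, SE 0.07, limma adjusted p = 2.96e-05). The second line control had 6.83, 6.88 and 7.46 FPKM and the shL5-labelled libraries 9.52, 9.22 and 10.1 FPKM. There ATRX rose 1.36-fold, again with no overlap (log2 fold 0.40, SE 0.07, limma adjusted p = 0.000311). The lowest library of all 12 still held 6.28 FPKM of ATRX RNA.

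DAXX, the histone chaperone that works with ATRX, did not follow it. DAXX (ENSG00000204209, chr6:33318558-33323016, minus strand) had 21.3, 19.3 and 19.3 FPKM in the SK-N-SH control and 23.8, 24.1 and 27.3 FPKM in the shL5-labelled SK-N-SH libraries. It rose 1.26-fold (log2 fold 0.31, SE 0.06, limma adjusted p = 0.000584), and the groups did not overlap. The second line control had 26.8, 28.1 and 27.4 FPKM and the shL5-labelled libraries 25.0, 27.2 and 27.0 FPKM. These groups overlapped and the difference did not pass (log2 fold -0.05, 95% interval -0.19 to 0.08, limma adjusted p = 0.444). It passed as lower with values rescaled to library totals (log2 fold -0.21, limma adjusted p = 0.00170) or by the upper quartile (log2 fold -0.15, limma adjusted p = 0.0191). Another gene, AL662820.1, covers 14.3% of the exonic bases of DAXX on the same strand.

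The shelterin subunits that bind double-stranded repeats were higher in the shL5-labelled SK-N-SH libraries. TERF2 (ENSG00000132604, chr16:69355561-69408571, minus strand) had 6.14, 6.01 and 6.41 FPKM in the SK-N-SH control and 8.15, 8.0 and 8.56 FPKM in the shL5-labelled SK-N-SH libraries, a 1.33-fold rise (log2 fold 0.36, SE 0.06, limma adjusted p = 0.000205). TERF2 fell in the second line from 9.65, 9.68 and 8.18 FPKM in the control to 6.06, 5.64 and 5.60 FPKM in the shL5-labelled libraries, 1.59-fold lower (log2 fold -0.58, SE 0.06, limma adjusted p = 3.49e-06). The groups did not overlap in either line.

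TERF1 (ENSG00000147601) had 3.16, 2.82 and 2.74 FPKM in the SK-N-SH control and 3.27, 3.48 and 3.5 FPKM in the shL5-labelled SK-N-SH libraries. It rose 1.18-fold (log2 fold 0.18, SE 0.06, limma adjusted p = 0.0196). This call was lost in 4 refits that each left out 1 library: SK-N-SH control replicate 2 (adjusted p = 0.0591) or 3 (0.0731), or shL5-labelled SK-N-SH replicate 2 (0.0565) or 3 (0.0575). The second line control had 3.48, 3.71 and 3.48 FPKM and the shL5-labelled libraries 2.83, 3.26 and 3.31 FPKM, which did not overlap and did not pass (log2 fold -0.14, limma adjusted p = 0.0526). That difference passed without shL5-labelled second line replicate 3 (0.0391), with voom on recovered reads (0.0425), and with either rescaling. The table holds 5 pseudogene rows named after TERF1, and the sharing of reads with them was not given in the sources used here.

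TINF2, which bridges the shelterin subunits, moved with ATRX and against ACD. TINF2 (ENSG00000092330, chr14:24239643-24242674, minus strand) had 16.9, 12.8 and 15.2 FPKM in the SK-N-SH control and 9.55, 9.30 and 9.91 FPKM in the shL5-labelled SK-N-SH libraries, 1.56-fold lower (log2 fold -0.59, SE 0.08, limma adjusted p = 2.46e-05). It rose in the second line from 10.6, 11.2 and 11.6 FPKM in the control to 14.3, 14.7 and 14.5 FPKM in the shL5-labelled libraries, 1.31-fold higher (log2 fold 0.36, SE 0.08, limma adjusted p = 0.00118). Neither pair of groups overlapped.

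ACD (ENSG00000102977, chr16:67657512-67660815, minus strand) had 8.59, 6.52 and 6.46 FPKM in the SK-N-SH control and 11.8, 10.9 and 11.5 FPKM in the shL5-labelled SK-N-SH libraries. It rose 1.59-fold (log2 fold 0.61, SE 0.09, limma adjusted p = 8.62e-05). It fell in the second line from 13.1, 12.3 and 11.5 FPKM to 9.35, 8.45 and 8.05 FPKM, 1.43-fold lower (log2 fold -0.47, SE 0.09, limma adjusted p = 0.000669). All shL5-labelled libraries were above the controls in SK-N-SH and below them in the second line.

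POT1, the subunit on the single-stranded overhang, varied least of the 9 tested genes on the log2 scale. POT1 (ENSG00000128513, chr7:124822386-124929983, minus strand) had 4.77, 4.09 and 5.01 FPKM in the SK-N-SH control and 4.55, 4.54 and 4.61 FPKM in the shL5-labelled SK-N-SH libraries (log2 fold -0.01, 95% interval -0.16 to 0.14, limma adjusted p = 0.900). The second line had 4.13, 3.85 and 3.79 FPKM in the control and 4.33, 3.68 and 4.02 FPKM in the shL5-labelled libraries (log2 fold 0.02, 95% interval -0.13 to 0.17, limma adjusted p = 0.752). The groups overlapped in both lines, and the sign of each log2 fold turned under other scalings. Both intervals leave out differences of the size seen for TINF2 or ACD in the same comparison.

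**Figure D2:**
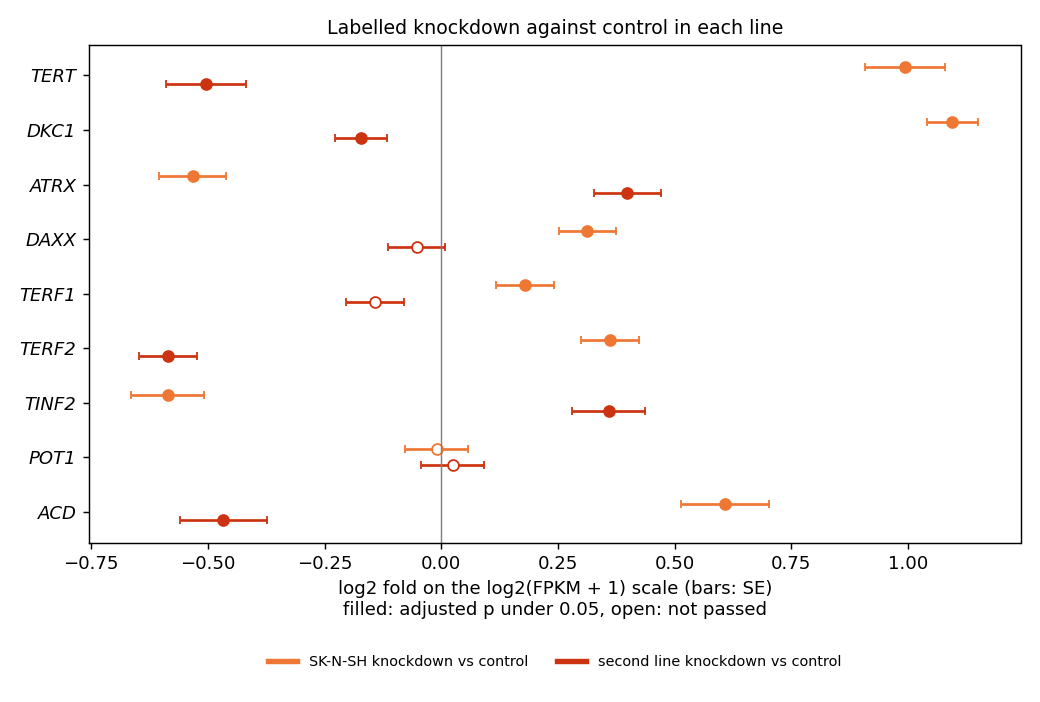
The horizontal axis is the log2 fold of the shL5-labelled libraries against the control on the log2(FPKM + 1) scale, with SE bars, for the 9 tested genes and both lines; filled points passed an adjusted p of 0.05. Orange (SK-N-SH) and red (second line) points lie on opposite sides of 0 for 9 of 9 genes, although POT1 passed in neither line, with signs that turned under other scalings, and DAXX and TERF1 are open in red. The share of all genes with opposite signs was not computed, and 84.9% of all genes passed the test of a difference between lines.

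In SK-N-SH, 6 of the 9 tested genes were higher in the shL5-labelled libraries (TERT, DKC1, DAXX, TERF1, TERF2 and ACD), 2 were lower (ATRX and TINF2) and 1 did not pass. Over all 15856 genes tested, 40.7% were called higher and 39% lower. The median log2 fold was 0.31 over the 9 genes and 0.02 over all genes tested. In the second line 2 were higher (ATRX and TINF2), 4 were lower (TERT, DKC1, TERF2 and ACD) and 3 did not pass, beside 39.9% called higher and 40.2% lower over all genes. The median log2 fold was -0.14 over the 9 genes and -0.02 over all. Rescaling to library totals moved the median over all genes to -0.13 in the second line and, for the difference between lines, from -0.03 to -0.19.

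The log2 fold of shL5-labelled against control libraries differed between the lines for 8 of the 9 genes, beside 84.9% of all genes tested. The test was of the second line fold minus the SK-N-SH fold. That contrast sets SK-N-SH control and shL5-labelled second line against shL5-labelled SK-N-SH and second line control. These are the pairs of groups with the highest correlations. The difference on the log2 scale was -1.50 for TERT (SE 0.12, limma adjusted p = 2.34e-07; -2.47 to -1.39 over the alternatives) and -1.27 for DKC1 (SE 0.08, limma adjusted p = 1.64e-08). It was 0.93 for ATRX and 0.94 for TINF2, the 2 genes with a positive difference that passed. For POT1 it was 0.03, with a 95% interval of -0.18 to 0.25 (limma adjusted p = 0.747).

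The control libraries of the lines also differed, a comparison that shares its control groups with those above. In the second line control 6 genes were higher than in the SK-N-SH control and 3 lower, beside 40.7% called higher and 38.9% lower over all genes. DKC1 was 2.11-fold, TERT 2.96-fold and ACD 1.71-fold higher there (limma adjusted p = 6.88e-09, 1.14e-06 and 2.43e-05). ATRX was 1.49-fold and TINF2 1.35-fold lower (limma adjusted p = 4.03e-05 and 0.000623). POT1 was 1.18-fold lower (log2 fold -0.19, limma adjusted p = 0.0240), although the groups overlapped and the call was lost in 6 of 15 refits, among them those without SK-N-SH control replicate 1 (0.0707) or 3 (0.101) and without second line control replicate 2 (0.0638) or 3 (0.0741).

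Fewer genes were called between groups of different line and label than within a line. Between the shL5-labelled SK-N-SH libraries and the second line control, 0 of the 9 genes passed with limma, 2 had an unadjusted p under 0.05 (TINF2 and POT1), and voom on recovered reads also called 0. Over all genes 2.26% were called higher and 3.12% lower. The 95% intervals of all 9 log2 folds lay between -0.37 and 0.33. All 3 shL5-labelled SK-N-SH libraries were below the second line control for TINF2 and above it for POT1 and DKC1, without passing the test. The share of all genes without overlap in this comparison was not computed.

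Between the shL5-labelled second line libraries and the SK-N-SH control, 3 genes were higher and 0 lower with limma, beside 26.9% called higher and 17.2% lower over all genes. DKC1 was 1.86-fold higher (log2 fold 0.87, limma adjusted p = 1.69e-06), TERT 1.73-fold (log2 fold 0.42) and DAXX 1.32-fold (log2 fold 0.39, limma adjusted p = 0.000494). None of these 3 overlapped between the groups. They had passed the test on the same values, and the share of all genes without overlap was not computed. ACD was at a log2 fold of 0.24 (limma adjusted p = 0.0581), which passed without SK-N-SH control replicate 1 (0.00251), with voom on recovered reads (0.0394) and with a minimum mean of 2 FPKM (0.0454). POT1 was at -0.16 (limma adjusted p = 0.0722), which passed without SK-N-SH control replicate 2 (0.0137) or shL5-labelled second line replicate 1 (0.0380). TERF2 and POT1 passed as lower with values rescaled to library totals (limma adjusted p = 0.0356 and 0.0217), and by the upper quartile ATRX did so as well (0.0291). Over all genes, 60.9% of the calls in this comparison were higher, against 45.7% with values rescaled to library totals and 40.3% by the upper quartile.

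**Figure D3:**
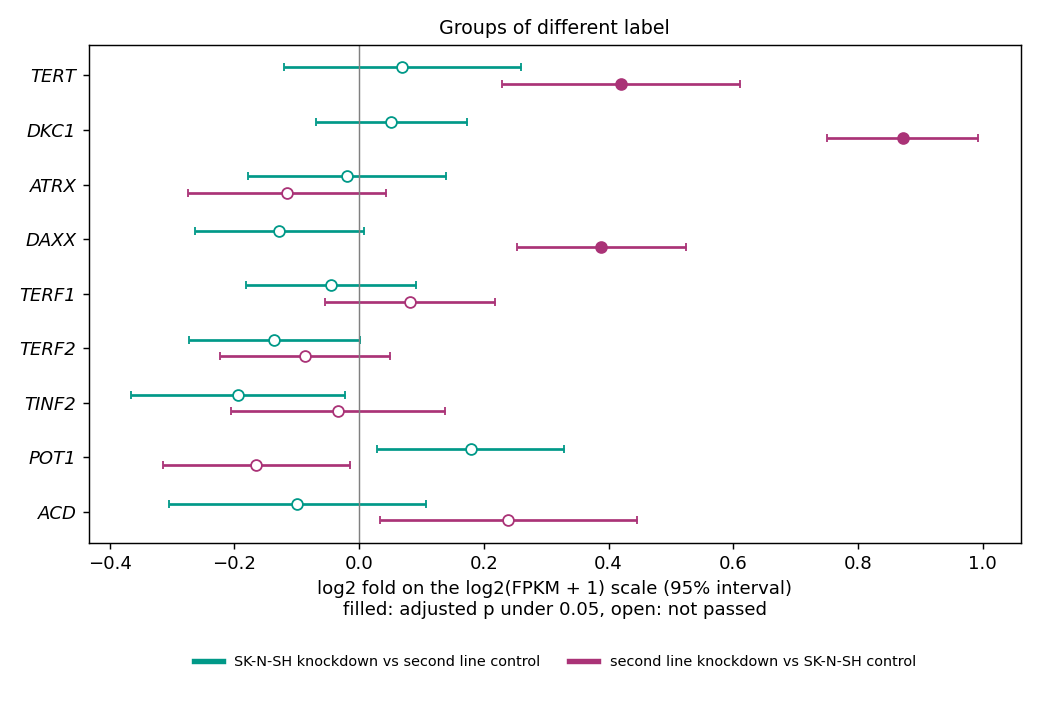
The horizontal axis is the log2 fold with its 95% interval for the 9 tested genes, between groups of different label: shL5-labelled SK-N-SH against second line control (green) and shL5-labelled second line against SK-N-SH control (purple). All 9 green points are open, while TERT, DKC1 and DAXX are filled, which marks an adjusted p under 0.05, in purple.

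Genes of 3 marker lists moved in the same comparisons. Over all genes tested, 40.7% were called higher and 39% lower in SK-N-SH, and 39.9% and 40.2% in the second line. Of 10 proliferation genes, 10 were higher in the shL5-labelled SK-N-SH libraries and 10 lower in shL5-labelled second line libraries (median log2 fold 1.86 and -1.69). MCM3, a subunit of the replicative helicase, rose in the first (2.57), and MKI67, a marker of cycling cells, fell in the second (-2.30). The summed level of the 10 genes was 196 to 265 FPKM in the SK-N-SH control, 794 to 863 in the shL5-labelled SK-N-SH libraries, 867 to 891 in the second line control and 246 to 341 in the shL5-labelled second line libraries. Of 10 markers of noradrenergic neuroblastoma cells, 10 rose in the first comparison and 10 fell in the second. Their sum was 84.1 to 97.1, 1253 to 1344, 1371 to 1421 and 67.6 to 83.8 FPKM in the same order of groups. TH, the enzyme of catecholamine synthesis, had 0 reads in the SK-N-SH control and in the shL5-labelled second line libraries. Of 10 mesenchymal markers 8 fell and 1 rose in SK-N-SH, and 9 rose and 1 fell in the second line, with sums of 907 to 919, 238 to 245, 225 to 240 and 843 to 903 FPKM. Schwann, blood and endothelial markers were low: Schwann markers summed to 1.47 to 7.48 FPKM over all libraries and blood and endothelial markers to 0.408 to 1.39 FPKM. Epithelial markers were not low in every group. They summed to 21.7 to 31.0 FPKM in the SK-N-SH control and the shL5-labelled second line libraries and to 1.36 to 2.08 FPKM in the other groups. The part of cell state or proliferation in the telomere gene results was not tested. In bulk RNA, fewer cells of a type and less RNA per cell cannot be told apart.

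**Figure D4:**
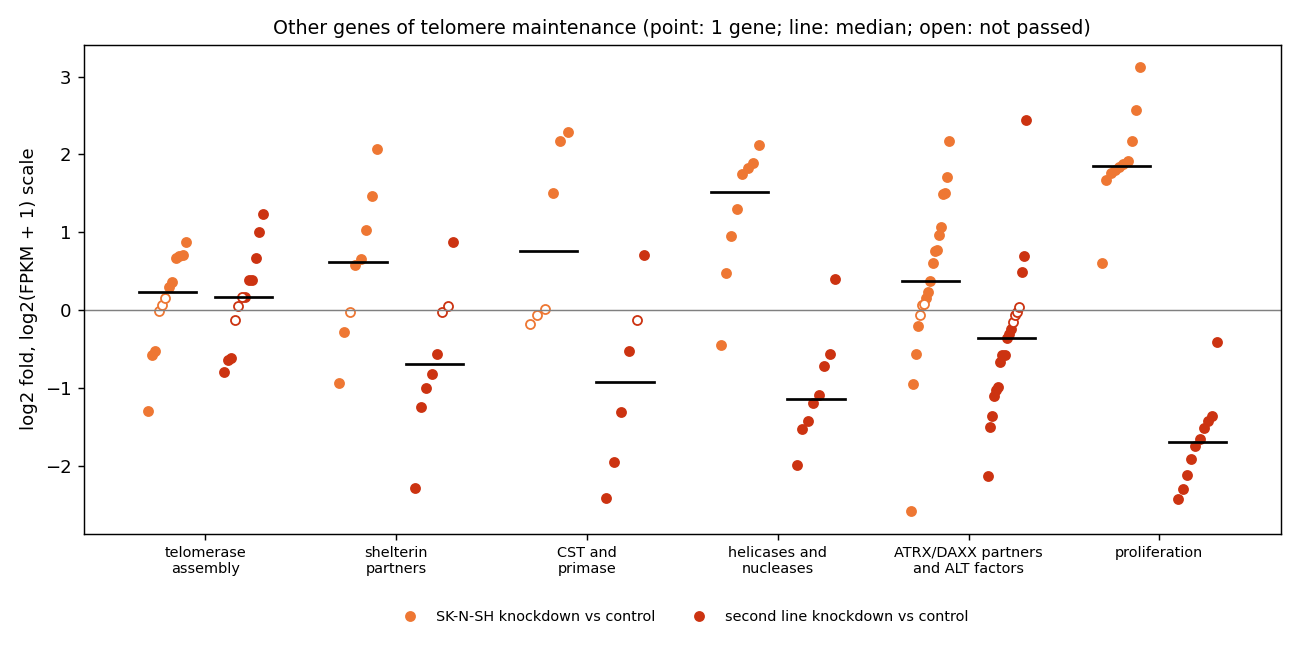
Each point is 1 tested gene, placed by its log2 fold of shL5-labelled libraries against control on the log2(FPKM + 1) scale, in columns by gene list and with 1 colour per line; black lines are medians and open points did not pass. The 10 proliferation genes lie above 0 in SK-N-SH and below 0 in the second line, while the 12 telomerase assembly genes lie on both sides in both lines.

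TERT lies in a chromosome 5 region with 11 listed neighbours, of which 7 were tested. In SK-N-SH 5 of these 7 rose, 1 fell and 1 did not pass, and in the second line 2 rose, 4 fell and 1 did not pass, beside 40.7% called higher and 39% lower over all genes in SK-N-SH and 39.9% and 40.2% in the second line. SLC12A7, a potassium-chloride cotransporter whose start lies 183 kb from that of TERT towards the chromosome end, was at 0.0298 ± 0.0208 FPKM in the SK-N-SH control and 1.63 ± 0.0847 FPKM in the shL5-labelled SK-N-SH libraries (log2 fold 1.35, SE 0.07, limma adjusted p = 3.22e-09). It was at 1.41 ± 0.0627 FPKM in the second line control and 0.00618 ± 0.0107 FPKM in the shL5-labelled second line libraries (SD, n = 3 each).

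On the other side, CLPTM1L, the next gene at 50 kb, went the opposite way to TERT. CLPTM1L fell from 23.2 ± 2.45 to 14.3 ± 0.604 FPKM in SK-N-SH (log2 fold -0.65, limma adjusted p = 2.46e-05) and rose from 15.2 ± 0.483 to 36.0 ± 4.04 FPKM in the second line (log2 fold 1.18, limma adjusted p = 1.24e-07; SD, n = 3). LPCAT1, a lipid acyltransferase at 228.9 kb on the side of CLPTM1L, rose in SK-N-SH (log2 fold 1.09) and fell in the second line (-0.86). NDUFS6, a subunit of respiratory complex I at 506.3 kb on that side, did the same (0.63 and -0.53). So did TRIP13, an ATPase of the spindle checkpoint at 402.4 kb on the side of SLC12A7 (0.92 and -0.39). BRD9, a chromatin remodeller subunit at 402.2 kb on the side of SLC12A7, rose in SK-N-SH (0.29) and did not pass in the second line (-0.01). MRPL36, a mitochondrial ribosomal protein at 506.3 kb on the side of CLPTM1L, rose in the second line (0.45) and did not pass in SK-N-SH (-0.07). NKD2, at 286.2 kb on the side of SLC12A7, had 5, 50, 59 and 1 reads over the groups in the order used for the marker sums, and was not tested. SLC6A3, SLC6A18 and SLC6A19 had at most 7 reads in any group.

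**Figure D5:**
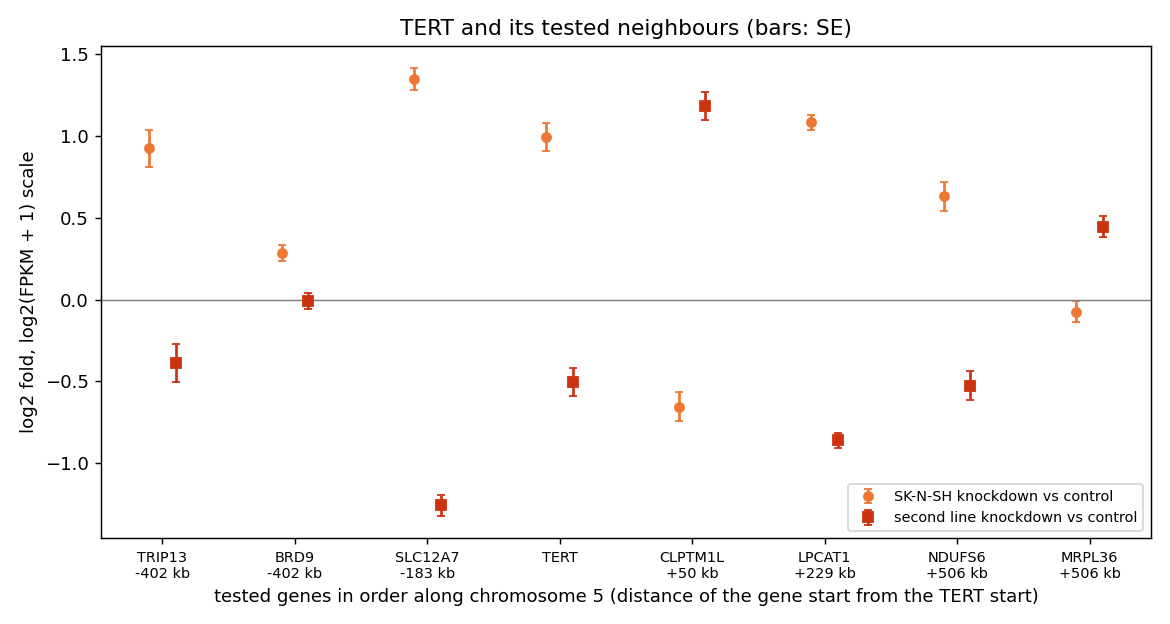
Points give the log2 fold of shL5-labelled libraries against control with SE bars for TERT and its 7 tested neighbours, in order along chromosome 5 with the distance of each start from that of TERT below the name. CLPTM1L, at 50 kb, lies on the other side of 0 from TERT in both lines.

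Factors known to act at the TERT promoter were counted as a list of 13, of which 12 were tested. In SK-N-SH 9 rose and 3 fell, and in the second line 3 rose and 8 fell, beside 40.7% called higher and 39% lower over all genes in SK-N-SH and 39.9% and 40.2% in the second line. The median log2 fold was 0.63 and -0.47 (0.02 and -0.02 over all genes tested). MYCN rose in the first (log2 fold 9.95, limma adjusted p = 7.26e-17) and fell in the second (-10.02, 6.69e-17). E2F1, a factor of S phase entry that is also in the proliferation list, went from 7.33 ± 1.64 to 70.7 ± 4.63 FPKM in SK-N-SH (limma adjusted p = 9.61e-10) and from 78.0 ± 2.95 to 13.8 ± 1.97 FPKM in the second line (limma adjusted p = 8.23e-09; SD, n = 3). MYC moved against MYCN: it was at 2.80 ± 0.263 FPKM in the SK-N-SH control, 0.257 ± 0.0402 in the shL5-labelled SK-N-SH libraries, 0.223 ± 0.0879 in the second line control and 3.24 ± 0.370 in the shL5-labelled second line libraries (log2 fold -1.60 and 1.79, limma adjusted p = 8.15e-09 and 2.69e-09). ETS2 fell in SK-N-SH (-0.31) and rose in the second line (0.27). The part of any of these factors in the TERT level was not tested.

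Telomerase assembly factors moved in both directions. Of 12 tested, 6 rose, 3 fell and 3 did not pass in SK-N-SH, and 6 rose, 3 fell and 3 did not pass in the second line, beside 40.7% called higher and 39% lower over all genes in SK-N-SH and 39.9% and 40.2% in the second line. The median log2 fold was 0.23 and 0.17 (0.02 and -0.02 over all genes tested). NAF1, which loads dyskerin complexes onto their RNAs, rose 2.24-fold in SK-N-SH and fell 1.78-fold in the second line (log2 fold 0.88 and -0.64, limma adjusted p = 2.69e-07 and 4.56e-06). WRAP53 (TCAB1), which brings telomerase to Cajal bodies, went the same way (0.71 and -0.79, limma adjusted p = 1.45e-05 and 5.59e-06). TEP1, a telomerase-associated protein, fell 3.51-fold in SK-N-SH and rose 3.49-fold in the second line (-1.29 and 1.23, limma adjusted p = 1.31e-09 and 1.76e-09). PARN, a ribonuclease that trims TERC, fell in SK-N-SH (-0.58) and went from 6.76 ± 0.323 to 11.3 ± 0.709 FPKM in the second line. RUVBL2, an assembly ATPase, rose in the second line (1.0) and went from 39.8 ± 4.30 to 27.3 ± 3.34 FPKM in SK-N-SH (SD, n = 3 each).

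Of 8 tested partners of shelterin, 5 rose and 2 fell in SK-N-SH, and 1 rose and 5 fell in the second line, beside 40.7% called higher and 39% lower over all genes in SK-N-SH and 39.9% and 40.2% in the second line. Their median log2 fold was 0.62 and -0.69 (0.02 and -0.02 over all genes tested). HMBOX1, which binds telomere repeats, went from 1.49 ± 0.172 to 9.51 ± 1.24 FPKM in SK-N-SH (limma adjusted p = 1.54e-09) and from 9.33 ± 0.908 to 1.13 ± 0.0878 FPKM in the second line (limma adjusted p = 6.33e-10; SD, n = 3). DCLRE1B (Apollo), the nuclease that TERF2 recruits, rose 3.46-fold and fell 2.75-fold (log2 fold 1.47 and -1.24). SMG6, known also for nonsense-mediated decay, went the other way (-0.93 and 0.87), and ZBTB48 fell in SK-N-SH (-0.27).

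The CST complex fills in the strand that telomerase does not make, with DNA polymerase alpha and primase. Of 7 genes 6 were tested: 3 rose and 0 fell in SK-N-SH, and 1 rose and 4 fell in the second line, beside 40.7% called higher and 39% lower over all genes in SK-N-SH and 39.9% and 40.2% in the second line. Their median log2 fold was 0.76 and -0.91 (0.02 and -0.02 over all genes tested). PRIM1, the catalytic primase subunit, rose 6.45-fold and fell 7.26-fold (log2 fold 2.29 and -2.41, limma adjusted p = 4.28e-08 and 2.53e-08), and POLA1, the polymerase subunit, rose 6.06-fold and fell 4.88-fold (2.17 and -1.94). PRIM2, the other primase subunit, rose in the second line (0.71, limma adjusted p = 7.30e-05). Of 8 helicases and nucleases that act when telomeres are replicated, 7 rose and 1 fell in SK-N-SH and 1 rose and 7 fell in the second line, beside the same shares over all genes. Their median log2 fold was 1.52 and -1.13 (0.02 and -0.02 over all genes tested). DNA2 rose 5.89-fold and fell 5.08-fold (2.12 and -1.99), EXO1 rose 4.20-fold and fell 3.10-fold (1.89 and -1.53), and SMARCAL1, which remodels stalled forks, was the 1 that went against them (-0.44 and 0.40). Most genes of these lists also act in DNA replication in general. The part of proliferation in their levels was not tested.

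Among partners of ATRX and DAXX and genes known from telomere lengthening without telomerase, 19 of 20 were tested. In SK-N-SH 12 rose and 4 fell, and in the second line 3 rose and 12 fell, beside 40.7% called higher and 39% lower over all genes in SK-N-SH and 39.9% and 40.2% in the second line. Over the 19 genes the median log2 fold was 0.37 and -0.35 (0.02 and -0.02 over all genes tested). MRE11, a nuclease of double-strand break repair, went from 2.65 ± 0.202 to 15.4 ± 0.378 FPKM in SK-N-SH (limma adjusted p = 4.94e-11) and from 14.5 ± 0.257 to 2.56 ± 0.321 FPKM in the second line (limma adjusted p = 5.21e-11; SD, n = 3). SP100, a component of PML bodies, went from 5.13 ± 0.184 to 0.0243 ± 0.0169 FPKM in SK-N-SH and from 0.0234 ± 0.0139 to 4.59 ± 0.0879 FPKM in the second line (log2 fold -2.58 and 2.45, limma adjusted p = 1.79e-12 and 2.44e-12). PML itself fell in SK-N-SH and rose in the second line (-0.94 and 0.70). ASF1B, a histone chaperone, rose in SK-N-SH (1.71), and CBX5, a heterochromatin protein, fell in the second line (-1.50).

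DKC1 had the widest range of group means on the log2(FPKM + 1) scale among the 9 tested genes, 1.10, next to 0.99 for TERT and 0.19 for POT1. That order depends on the scale, which understates low genes. As a ratio of mean FPKM between groups, the widest was 3.17-fold for TERT and 2.18-fold for DKC1. Among 12209 other tested protein-coding genes, those with the pattern most like DKC1 over the 12 libraries were CCNE1, MRTO4, DPH2, POLR3K and JPT2. Likeness was the root mean square difference of log2(FPKM + 1) after each gene was centred on its own mean, and it was 0.0805, 0.0809, 0.0814, 0.0827 and 0.0838 for these genes. This ranking is a description over libraries that share their groups.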

How the data were processed

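Libraries were made from total RNA with a NEBNext Ultra RNA kit, per the labels' protocols, and HISAT2 2.0.5 and featureCounts 1.5.0-p3 are named in the submitters' processing notes. The deposited values are FPKM per gene, computed by the authors. The build in those notes is mm10, but 58724 of the 58735 genes have the start, end and strand of GENCODE 29, so coordinates are on GRCh38. The strand setting of the counting was not given in the sources used here. FPKM times gene length gave whole reads for 100% of values (tolerance 0.05 reads), and the authors' scaling was in proportion to median-of-ratios size factors and not to library totals. In R 4.3.3, limma 3.58.1 was fitted to log2(FPKM + 1), pseudocount 1, with a mean-variance trend and 4 group means over 12 libraries, two-sided. The fit was tested on simulated data. All columns matched sample titles. The members and lists were chosen with earlier results of these data known. Named beyond the 10 genes are up to 2 genes per list, direction and labelled knockdown comparison with the largest absolute log2 fold, all TERT neighbours, TSPYL5 and MYCN, and the 5 genes most like DKC1. PINX1 had 2 rows and was left out of its list. Alternatives were other pseudocounts, filters, scalings, models and leaving out each library.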

Additional observations from a re-analysis of the deposited data

Results flagged for a closer look

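For 8 of the 9 tested genes, the log2 fold of shL5-labelled against control libraries differed between the lines. This was tested directly with limma, as the second line fold minus the SK-N-SH fold. The contrast follows the split between the most alike pairs of groups, and an effect of the hairpin cannot be told apart in it. The difference on the log2(FPKM + 1) scale was -1.50 for TERT (-2.47 to -1.39 over the alternatives), -1.27 for DKC1, 0.93 for ATRX and -0.37 for DAXX. Among the shelterin genes it was -0.32 for TERF1, -0.95 for TERF2, 0.94 for TINF2 and -1.07 for ACD. Of all genes tested, 84.9% passed the same test. TSPYL5 itself was higher in all 3 shL5-labelled SK-N-SH libraries than in their controls and lower in all 3 shL5-labelled second line libraries than in theirs.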

How the results depend on the processing

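Of 849 log2 folds of single telomere genes under an alternative, 807 kept their direction and side of the threshold, 17 came to pass it, 10 ceased to pass it and 15 changed sign, all 15 for folds that did not pass. The count of genes called between the shL5-labelled second line libraries and the SK-N-SH control, 3, became 5 with values rescaled to library totals and 6 by the upper quartile. Rescaling to library totals turned the log2 fold of POT1 to 0.0329 in SK-N-SH, -0.104 in the second line and -0.137 for the difference between lines, and that of TERF1 in that comparison to -0.000267. The upper quartile turned POT1 to -0.0549 in the second line and -0.0196 for the difference, and TERF1 to -0.0205. Leaving out each library in turn gave POT1 -0.0798 to 0.0398 in SK-N-SH, -0.0210 to 0.0722 in the second line and -0.0155 to 0.104 for the difference, ATRX -0.0974 to 0.0438 between shL5-labelled SK-N-SH and second line control, and TINF2 -0.134 to 0.0511 between shL5-labelled second line and SK-N-SH control. With a replicate block, 8, 6, 9, 0, 4 and 8 genes were called in the 6 comparisons (8, 6, 9, 0, 3 and 8 without it), and ACD came to pass between shL5-labelled second line and SK-N-SH control (limma adjusted p = 0.0155). Libraries of one number did not deviate together (correlations -0.075 to 0.102). Over all genes, the 854 calls between shL5-labelled SK-N-SH and second line control ranged from 474 to 940 over the alternatives. The cause of these changes was not tested. With 13 reads in all, the counts of TERC could not show a difference between groups.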
